A study of Caenorhabditis elegans with 16 samples.

Results

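The members of the miR-35 family were examined in the small RNA that co-purified with selected mRNAs of Caenorhabditis elegans. The family was taken as the 3p strands of 8 precursors, cel-miR-35-3p, cel-miR-36-3p, cel-miR-37-3p, cel-miR-38-3p, cel-miR-39-3p, cel-miR-40-3p, cel-miR-41-3p and cel-miR-42-3p, chosen by name out of 434 mature miRNAs in each library. The choice was made with earlier results of these data known. All 16 libraries came from synchronized young adults that had been irradiated with ultraviolet light, and from whole-worm lysates in which biotinylated DNA probes retrieved a chosen transcript with the proteins and small RNAs attached to it (the vIPR method). The no-target control used probes to the gfp coding sequence in wild-type N2 worms, which carry no gfp (n = 3). The same gfp probes retrieved the gld-1::gfp transgene transcript from strain BS1080, which makes the fusion protein at endogenous levels (n = 2), and the transcript of an endogenously tagged gfp::lin-41 (strain DG3913, n = 1). Probes tiling the endogenous transcripts retrieved gld-1, lin-41 and alg-1 from N2 (n = 2 each). Probes to gld-1 were applied as well to N2-derived strains with a CRISPR edit of the miR-84 site in the endogenous gld-1 gene, which either destroyed the match to the seed (seed destruction, n = 2) or changed bases outside it and so turned the site towards let-7 (changed specificity, n = 2). The replicates were described as independent pulldowns.

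miRNAs guide Argonaute proteins to mRNAs, and bases near the 5′ end of the miRNA, the seed, contribute most to target choice. The miR-35 family members share a seed, are known from the C. elegans germline, oocytes and early embryo, and act redundantly there. They are needed for embryonic development. Of the transcripts retrieved, gld-1 encodes a germline RNA-binding protein that represses translation, lin-41 encodes a TRIM-NHL RNA-binding protein known as a target of let-7 and from oocytes, and alg-1 encodes an Argonaute of the miRNA pathway.

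In the WBcel235 assembly, 7 of the precursors lie side by side on the forward strand of chromosome II, from mir-35 (chrII:11537608-11537704) to mir-41 (chrII:11538308-11538404), within 797 bp. The order between them is mir-36, mir-37, mir-38, mir-39 and mir-40. This cluster lies inside the protein-coding gene Y62F5A.9, which is on the opposite strand, and overlaps none of its annotated exons. The loci mir-35, mir-36, mir-37 and mir-39 also overlap exons of short annotated non-coding RNA genes (Y62F5A.16, Y62F5A.14 and Y62F5A.15). mir-42 (chrII:11889811-11889905) lies 351406 bp further along the same strand, next to mir-43 and mir-44, and overlaps an exon of the non-coding RNA gene ZK930.12 on the other strand.

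The libraries held between 12474 and 2081849 miRNA reads, and the 3 control libraries were the shallowest. A single miRNA took between 24.3% and 95.1% of a library, so the shares of all other miRNAs depended on it. Levels are therefore given as normalised CPM, that is reads scaled to library size after correction by TMM (trimmed mean of M values) factors, which ranged from 0.155 to 5.31, and as shares of the family's own reads, which need no scaling. Differences were tested with edgeR's quasi-likelihood test over the 112 miRNAs that reached 10 reads in 2 libraries, and "called" means a Benjamini-Hochberg adjusted p under 0.05. Control replicate 1 stood apart in the family itself, with 10.1% of its reads in the family, against 2.29% and 2.96% in the other control libraries. Its library name carries the prefix E, shared with gld-1::gfp replicate 1 and gfp::lin-41. Calls against the control are given below with and without this library. It was singled out by the family's own share, and it was the highest control for each tested member. Leaving it out therefore raises their log2 fold changes against the control, and calls made without it are no independent support. A list of 5 miRNAs known from somatic tissue took 0.00446% to 0.473% of the reads of a library. In it, lsy-6-3p of neurons had no read in any library, miR-1-3p of muscle had at most 8, miR-124-3p of neurons at most 145, miR-60-3p of intestine at most 173 and miR-228-5p of glia at most 459. The other strand of the intestinal mir-60, miR-60-5p, was outside the list and was the most abundant miRNA of control replicate 1, with 27.2% of its reads. No germline markers were listed beside them, so the germline label of the family was not checked. Whole worms were lysed, so fewer cells of a type and less RNA per cell cannot be told apart.

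Not all members were detected in the counts. cel-miR-35-3p, cel-miR-36-3p, cel-miR-37-3p, cel-miR-39-3p, cel-miR-40-3p and cel-miR-42-3p had reads in all 16 libraries and passed the filter. miR-35-3p had 25384 reads in all and miR-40-3p had 21987, whereas miR-36-3p had 1011. cel-miR-38-3p had no read in any library, and a count of 0 allows a share of up to 0.0241% where depth was lowest and 0.000144% where it was highest (3 reads, counting error only). cel-miR-41-3p had 9 reads in 5 libraries, with at most 3 in a library. Neither was tested for differences. Reads had been trimmed at runs of A, and whether that lowered the counts of these members was not tested. Their low counts therefore do not show that they were absent. For the mir-41 precursor most counted reads were of the other arm, as miR-41-5p had 264 reads in 15 libraries. For mir-35, mir-37, mir-39 and mir-40 the 3p strand held 95.7% or more of the reads of the precursor's 2 arms. It held 88.5% for mir-36 and 86.2% for mir-42. mir-38 had only 9 reads of its 5p arm.

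The summed family took 0.488% and 0.299% of the reads with gld-1::gfp, 0.879% and 0.528% with endogenous gld-1, 1.46% and 1.64% in seed destruction and 0.126% and 0.260% in changed specificity. It took 0.265% and 0.639% with lin-41, 1.02% with gfp::lin-41 and 3.59% and 3.77% with alg-1. The control libraries were at or above most of these shares. When the most abundant miRNA of each library was left out of the total, the mean share was 6.93% in the control, between 1.12% and 2.47% in the 4 groups that retrieved a gld-1 transcript, 1.78% with lin-41, 3.94% with gfp::lin-41 and 7.39% with alg-1. The control libraries were apart in this share, at 13.8% in replicate 1 and 3.03% and 3.93% in replicates 2 and 3, both lower than either alg-1 library (6.45% and 8.33%). In normalised CPM the sum was 9351 and 8087 with gld-1::gfp, 6900 and 8090.2 with gld-1, 5308 and 5185 in seed destruction, and 8152 and 7393 in changed specificity. It was 10299.9 and 10184 with lin-41, 30401 with gfp::lin-41 and 20902 and 29277 with alg-1, against 23181, 4787 and 5567 in the control. Every library of a target lay above control replicates 2 and 3, except the seed destruction libraries, which lay between them. gfp::lin-41 and alg-1 replicate 2 were the only libraries above control replicate 1. The sum was not tested.

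The make-up of the family differed between the pulldowns, as the shares within each library show. Endogenous gld-1, lin-41 and alg-1 each had their own probes, so transcript and probe set cannot be told apart among them. miR-37-3p was 18.2% to 43.1% of the family's reads in the 8 libraries of a gld-1 transcript, 4.87% to 9.95% in the 3 libraries of a lin-41 transcript, 4.01% to 5.45% with alg-1 and 9.76% to 17.3% in the control. miR-42-3p was 5.24% to 14.3% in the gld-1 libraries, 0.358% to 0.861% in the lin-41 libraries, 0.189% to 0.434% with alg-1 and 0.818% to 2.44% in the control. For both members every gld-1 library was above every other library. miR-35-3p made up 52.9% to 72.6% of the family in the lin-41 libraries, above every other library. It made up 9.26% to 31.7% with gld-1, 3.26% to 5.08% with alg-1 and 14.9% to 45.3% in the control. miR-40-3p made up 84.7% and 89.2% of the family with alg-1 and no more than 57.6% elsewhere. These shares sum to 100 within a library, so a member that is high lowers the others, and no test was made on them.

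**Figure D1:**
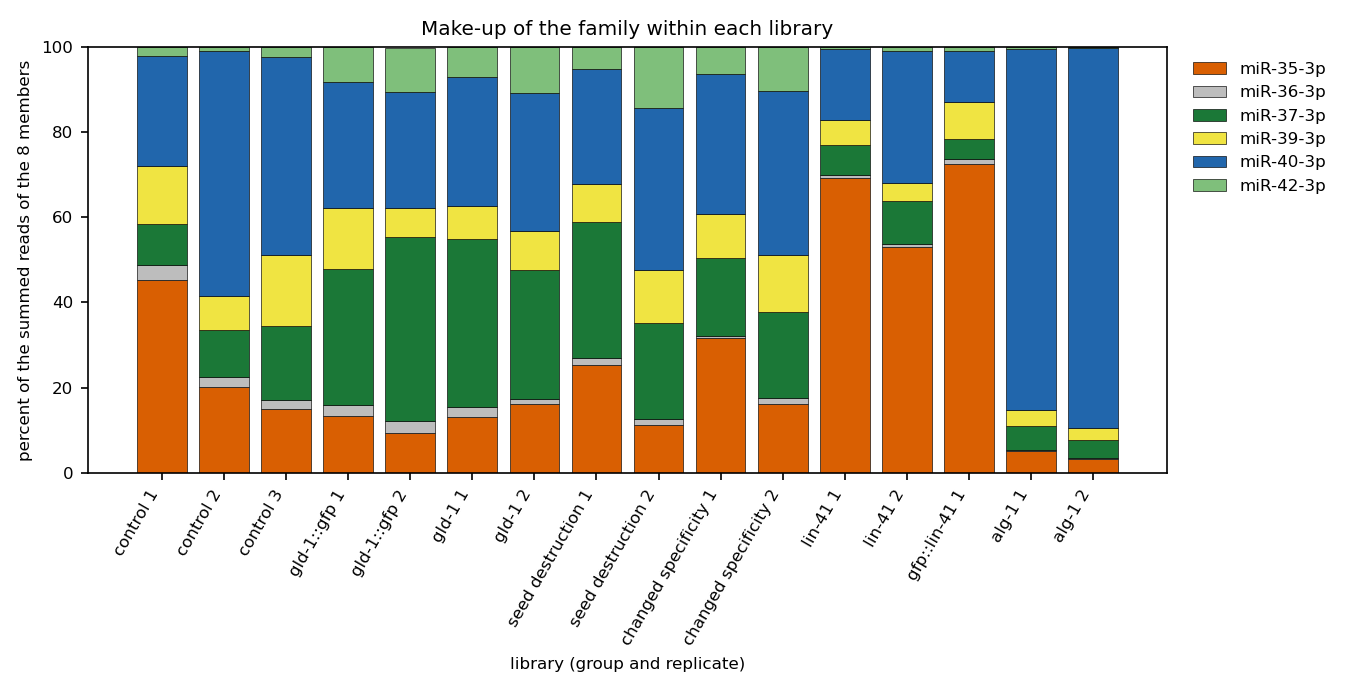
Make-up of the family in each library. The y axis gives the percent of the summed reads of the 8 members and the x axis the 16 libraries by group and replicate. Each colour is a member (miR-38-3p had no read and miR-41-3p at most 0.117%, so neither is visible). miR-35-3p fills 52.9% or more of the lin-41 and gfp::lin-41 bars, miR-40-3p 84.7% or more of the alg-1 bars, and miR-37-3p with miR-42-3p are tallest in the bars of gld-1 transcripts.

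With gld-1::gfp and unedited gld-1, miR-37-3p and miR-42-3p were the members with the highest levels relative to the other pulldowns. The level of miR-37-3p was 2999 and 3489 normalised CPM with gld-1::gfp and 2716 and 2455 with endogenous gld-1. It was 1693 and 1161 in seed destruction and 1482 and 1489 in changed specificity. The control libraries had 2263, 529 and 966. The order of the group means ran from gld-1::gfp and gld-1 through changed specificity, gfp::lin-41 (1481), seed destruction, the control and alg-1 (1138 and 1175) to lin-41 (722 and 1014). The libraries of gld-1::gfp and of gld-1 did not overlap with each other or with any other group, whereas gfp::lin-41, seed destruction and the control each overlapped with the next in this order. The alg-1 libraries lay above the lin-41 libraries without overlap.

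For miR-42-3p, the only member outside the cluster, the level was 767 and 844 normalised CPM with gld-1::gfp, 485 and 875 with gld-1, 278 and 741 in seed destruction and 512 and 763 in changed specificity. It was 36.9 and 87.7 with lin-41, 259 with gfp::lin-41 and 90.6 and 55.4 with alg-1. The control libraries had 483, 39.2 and 136. The gld-1 groups overlapped with each other and lay above every lin-41, gfp::lin-41 and alg-1 library, while control replicate 1 reached into their range. The low values rest on few reads, 10 and 9 with lin-41, 25 and 9 with alg-1, and 8 and 9 in control replicates 2 and 3. Across the 16 libraries the levels of miR-37-3p and miR-42-3p had a Spearman correlation of 0.821, and no other pair of the tested members exceeded 0.515. Both values describe libraries that share the scaling.

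Endogenous lin-41 and alg-1 served as other targets against which the gld-1 pulldown could be set, a choice made after the data had been seen. Each of these targets had its own probes, so transcript and probe set cannot be told apart in these comparisons. miR-42-3p was 11.5-fold lower with lin-41 than with gld-1 (log2 fold change -3.52, SE 0.93, edgeR adjusted p = 0.00736), the only called member of the 6 tested, in a comparison in which 15.2% of all miRNAs were called. It was 9.16-fold lower with alg-1 than with gld-1 (log2 fold change -3.20, SE 0.90, edgeR adjusted p = 0.0102). miR-40-3p was called beside it, so that 2 of 6 members were called where 17.9% of all miRNAs were. Without gld-1 replicate 2 the adjusted p for miR-42-3p was 0.0509 against lin-41 and 0.0641 with alg-1, and without lin-41 replicate 1 it was 0.12. Without alg-1 replicate 1 or 2 it was 0.0581 or 0.111, and with library totals in place of TMM it was 0.154 for alg-1. The direction was the same in all of these fits. miR-37-3p was 2.99-fold lower with lin-41 than with gld-1, which was not called (log2 fold change -1.58, SE 0.62, edgeR adjusted p = 0.0853), nor was its difference of -1.16 between alg-1 and gld-1 (SE 0.61, edgeR adjusted p = 0.245).

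**Figure D2:**
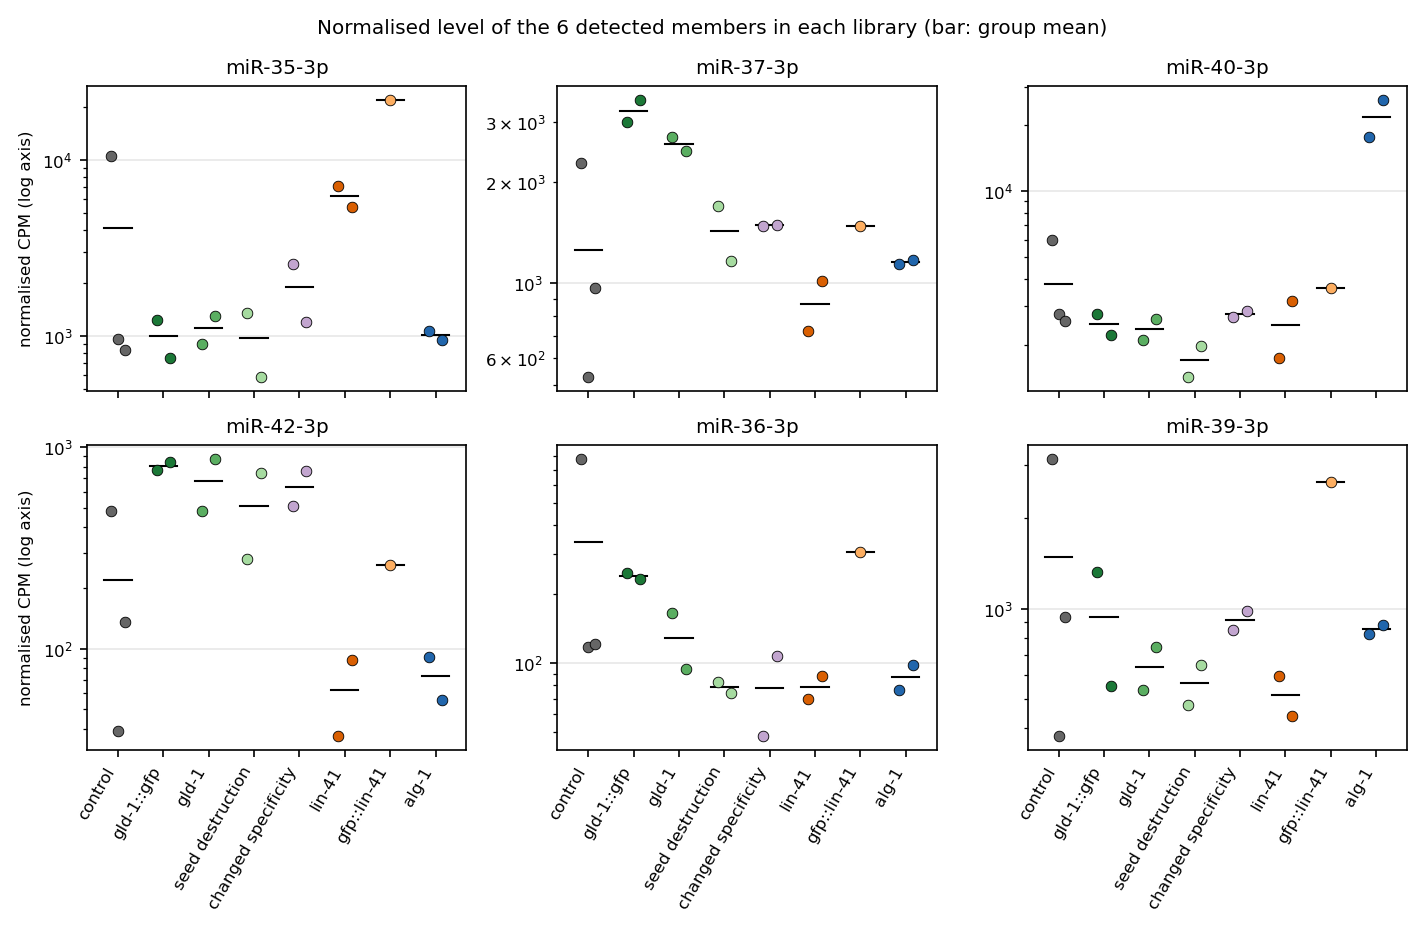
Level of the 6 detected members in each library. The y axis of each panel is normalised CPM on a log axis with its own range, the x axis the 8 groups, each point a library and each bar a group mean. gld-1::gfp and unedited gld-1 are high for miR-37-3p, whereas the edited strains are below control replicate 1 there. The 4 gld-1 groups are high for miR-42-3p, the lin-41 groups for miR-35-3p and alg-1 for miR-40-3p. Control replicate 1 is above the other control libraries in every panel.

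No member differed between gld-1::gfp and gld-1 by the test (0 of 6, none at an unadjusted p under 0.05, in edgeR and 0 in DESeq2), while 11.6% of all miRNAs were called. The log2 fold change of miR-37-3p was 0.33 with a 95% interval from -0.91 to 1.56, that of miR-42-3p 0.24 (-1.41 to 1.90) and that of miR-40-3p 0.08 (-1.14 to 1.30). That of miR-36-3p was 0.89 (-0.86 to 2.65) and that of miR-39-3p 0.56 (-0.90 to 2.01). For miR-35-3p it was -0.15 (-2.09 to 1.79), and with the name prefix as a factor it was called as lower with gld-1::gfp (-1.46, edgeR adjusted p = 0.0286). These intervals do not show that the transgene and the endogenous transcript acted alike. The transgene was retrieved with gfp probes and the endogenous transcript with gld-1 probes, so transcript and probe set cannot be told apart here.

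The edits of the miR-84 site left the family without a called member. Against gld-1, 0 of 6 members were called in seed destruction (1.79% of all miRNAs) and 0 of 6 in changed specificity (2.68% of all miRNAs), with none at an unadjusted p under 0.05 in edgeR and 0 called in DESeq2. All 6 members had a log2 fold change below 0 in seed destruction, with a median of -0.44 beside -0.15 for all miRNAs. miR-37-3p had -0.86 (95% interval -2.10 to 0.39) in seed destruction and -0.80 (-2.04 to 0.44) in changed specificity. Each of the 4 libraries of the edited strains was below both gld-1 libraries for this member. miR-42-3p had -0.42 (-2.07 to 1.24) and -0.09 (-1.75 to 1.56). miR-35-3p had 0.78 (-1.18 to 2.73) in changed specificity, where its libraries had 2580 and 1196 normalised CPM, and was called there with the name prefix as a factor (1.57, edgeR adjusted p = 0.0363).

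With lin-41, the member that stood out was miR-35-3p, in the first hairpin of the cluster. Its level was 7138 and 5389 normalised CPM with endogenous lin-41 and 22073 with gfp::lin-41. It was 901 and 1303 with gld-1, 1237 and 749 with gld-1::gfp, 1350 and 584 in seed destruction and 1062 and 954 with alg-1. The control libraries had 10510, 964 and 829.8. The lin-41 and gfp::lin-41 libraries were thus above all libraries of other targets and above control replicates 2 and 3, and control replicate 1 lay between lin-41 and gfp::lin-41. Over all libraries the level spanned 37.8-fold, the widest span among the 6 tested members. The difference between lin-41 and gld-1 was 5.68-fold and missed the threshold (log2 fold change 2.51, SE 0.97, edgeR adjusted p = 0.0942). It was called in 4 of 11 alternatives. These were the fit without the low-count filter, the replicate block, that block with crossed gld-1 numbers, and the name prefix as a factor. The last gave the smallest adjusted p (2.64, edgeR adjusted p = 1.26e-06), where 25 of all miRNAs were called. With a library left out the log2 fold change was 2.27 to 2.80. That between alg-1 and lin-41 was -2.64 (SE 0.97, edgeR adjusted p = 0.0774). Against the control, 0 of 6 members were called with lin-41 (3 at an unadjusted p under 0.05 in edgeR, 0 called in DESeq2) where 17.9% of all miRNAs were called, and the log2 fold change of miR-35-3p was 0.61 (SE 0.83).

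Without control replicate 1, miR-35-3p was called as higher with lin-41 than in the control (log2 fold change 2.80, SE 0.59, edgeR adjusted p = 0.000623), where 20% of all miRNAs were called. With all control libraries and the name prefix as a factor it was also called (2.61, edgeR adjusted p = 7.48e-06), where 30 of the 112 miRNAs were called. The direction turned to -2.81 when library totals replaced TMM. The other 5 members had values between -0.61 and 0.23 without control replicate 1, none of them called. gfp::lin-41 has a single library and no test. Its miR-35-3p was above control replicate 1, which has the same name prefix, by 1.07 on the log2 scale, and lin-41 replicate 1 was above control replicate 2, of its own prefix, by 2.89. The 5p arm of mir-42 was also high in gfp::lin-41, with 287 reads (411.5 normalised CPM) against 20, 0 and 1 reads in the control libraries and 23 and 4 with lin-41.

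With alg-1, miR-40-3p was higher than in any other group. Its level was 17708 and 26109 normalised CPM, and no other library exceeded 5990, the value of control replicate 1. The other control libraries had 2756 and 2580. The level was 2096.5 and 2620.4 with gld-1, 2774 and 2209 with gld-1::gfp, 1736 and 3167 with lin-41 and 3637 with gfp::lin-41. miR-40-3p was 5.79-fold higher with alg-1 than in the control (log2 fold change 2.53, SE 0.54, edgeR adjusted p = 0.000761), the only called member of 6 where 21.4% of all miRNAs were called. It was 9.29-fold higher than with gld-1 (log2 fold change 3.22, SE 0.65, edgeR adjusted p = 0.000471). It was 8.95-fold higher than with lin-41 (log2 fold change 3.16, SE 0.64, edgeR adjusted p = 0.000544), in a comparison that called 1 of 6 members and 17% of all miRNAs. Both of these comparisons were called in 10 of 10 alternatives. Against the control it was called in 9 of 11, and was lost without alg-1 replicate 2 (adjusted p = 0.0972) and with library totals (log2 fold change 0.86). Within the name prefixes the difference was 2.68 for alg-1 replicate 1 and 3.34 for alg-1 replicate 2 on the log2 scale. The other 5 tested members all had log2 fold changes below 0 against the control, from -0.12 for miR-37-3p to -2.03 for miR-35-3p, and none was called. Without control replicate 1 these lay between -0.44 and 0.66, and miR-40-3p was higher by 3.05 on the log2 scale (edgeR adjusted p = 0.000121), where 24.5% of all miRNAs were called.

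**Figure D3:**
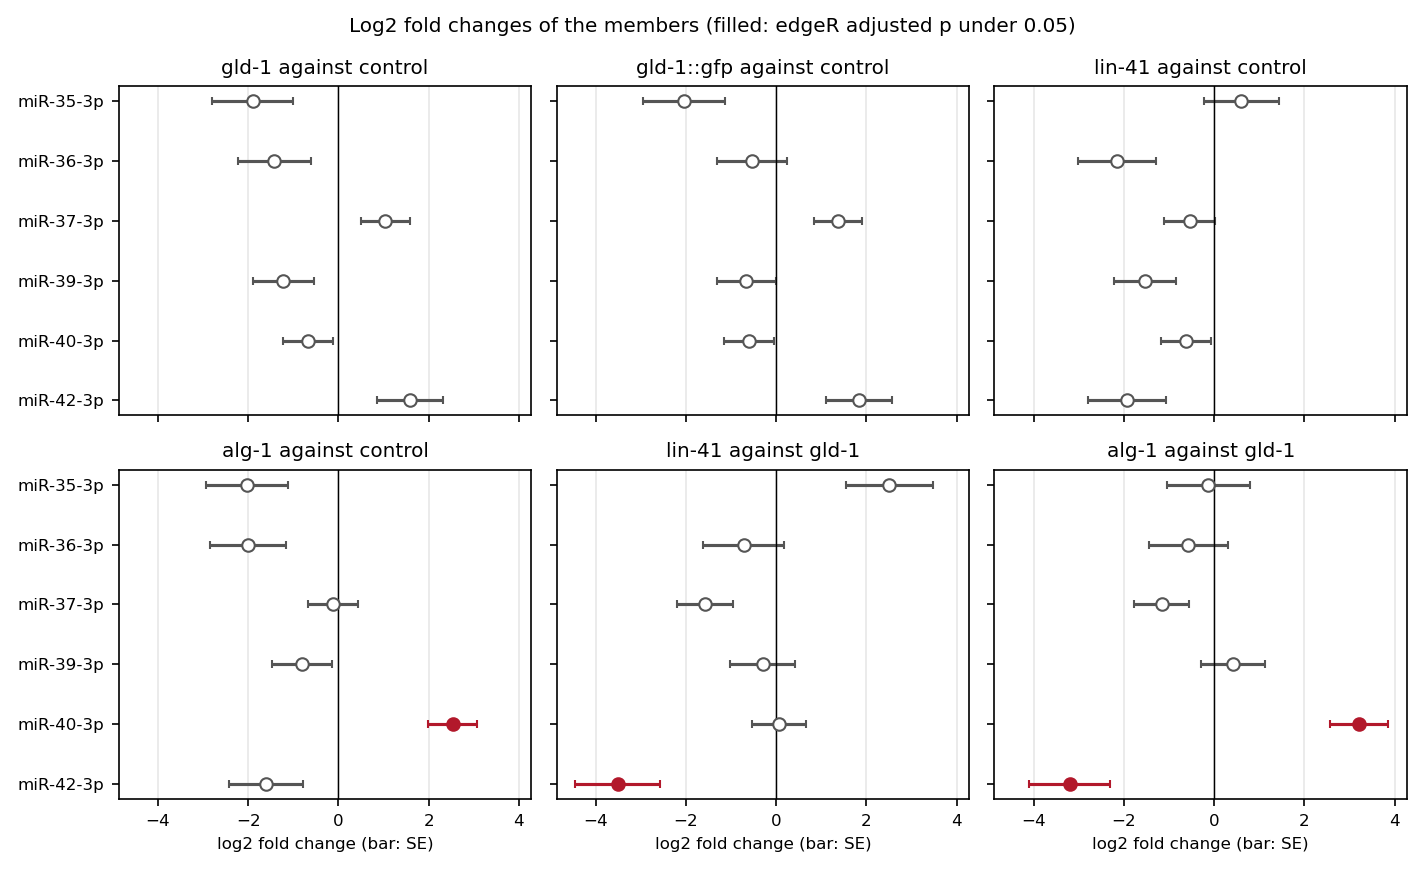
Log2 fold changes of the 6 tested members in 6 comparisons. Points are edgeR estimates on the x axis with bars of 1 SE, the members are on the y axis, and filled points are called (adjusted p under 0.05). The filled points are miR-40-3p with alg-1 against the control (2.53) and against gld-1 (3.22), and miR-42-3p with lin-41 (-3.52) and alg-1 (-3.20) against gld-1. The lin-41 and alg-1 panels against gld-1 share the gld-1 libraries, and those against the control share the control libraries.

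Compared with the no-target control, no member was called with gld-1 (0 of 6, with 2 at an unadjusted p under 0.05 in edgeR and 0 in DESeq2, where 22.3% of all miRNAs were called) or with gld-1::gfp (0 of 6, with 3 at an unadjusted p under 0.05 and 0 in DESeq2, where 12.5% were called). The log2 fold changes of miR-37-3p were 1.04 (SE 0.54, edgeR adjusted p = 0.181) and 1.37 (SE 0.54, edgeR adjusted p = 0.107). Those of miR-42-3p were 1.59 (SE 0.74, edgeR adjusted p = 0.135) and 1.84 (SE 0.74, edgeR adjusted p = 0.107). The other 4 members had values below 0 in both, down to -1.90 and -2.05 for miR-35-3p. Without control replicate 1 several of these signs turned. miR-35-3p then had 0.29 with gld-1 and 0.14 with gld-1::gfp, miR-36-3p 0.11 and 1.00, miR-39-3p -0.01 and 0.54, and miR-40-3p -0.18 and -0.11, none of them called. When the 3 strains retrieved with gld-1 probes were averaged, 2 of 6 members were lower than in the control, miR-36-3p by 3.73-fold (log2 fold change -1.90, SE 0.58, edgeR adjusted p = 0.0125) and miR-35-3p by 3.26-fold (log2 fold change -1.71, SE 0.62, edgeR adjusted p = 0.0471), beside 30.4% of all miRNAs.

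These comparisons rested on control replicate 1. It held 10510 normalised CPM of miR-35-3p, 778 of miR-36-3p and 3151 of miR-39-3p, against 964 and 829.8, 117 and 121, and 377 and 935 in the other control libraries. gld-1::gfp replicate 1, which shares its name prefix, had 1237, 248 and 1324. Without control replicate 1, miR-35-3p in the 3 strains turned from -1.71 to 0.49 and miR-36-3p went to -0.36, neither called. miR-37-3p was then called as higher, with log2 fold changes of 1.80 with gld-1 (SE 0.53, edgeR adjusted p = 0.0103), 2.12 with gld-1::gfp (SE 0.53, edgeR adjusted p = 0.00465) and 1.25 in the 3 strains (SE 0.45, edgeR adjusted p = 0.0369). miR-42-3p was called as higher in the same comparisons, with log2 fold changes of 3.11 (SE 0.79, edgeR adjusted p = 0.00334), 3.34 (SE 0.79, edgeR adjusted p = 0.00271) and 2.93 (SE 0.72, edgeR adjusted p = 0.00183). In these fits 20%, 17.3% and 27.3% of all miRNAs were called. The control values of miR-42-3p are then 8 and 9 reads. When control replicate 2 or 3 was left out instead, miR-35-3p was the single called member with gld-1 and with gld-1::gfp, as lower. In these fits 22 and 24 of all miRNAs were called with gld-1, and 15 and 16 with gld-1::gfp. Without control replicate 2, miR-36-3p, miR-39-3p and miR-42-3p were called as lower with lin-41, and 4 members with alg-1 (miR-35-3p, miR-36-3p and miR-42-3p as lower, beside miR-40-3p). With the 3 control libraries 17.9% and 21.4% of all miRNAs were called in the lin-41 and alg-1 comparisons. The share without control replicate 2 is not given here. In the 3 strains the call of miR-35-3p was also lost without any 1 of the 6 gld-1 probe libraries (adjusted p from 0.0513 to 0.103), and that of miR-36-3p without changed specificity replicate 1 (adjusted p = 0.0591). With library totals in place of TMM the log2 fold changes of miR-37-3p and miR-42-3p against the control, with gld-1 and with gld-1::gfp, were below 0, as most miRNAs were.

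Pairs of a gld-1::gfp or gld-1 library with the control of its name prefix gave values above 0 for miR-37-3p and miR-42-3p. The level of miR-42-3p was above that of the control of the same prefix by 0.67 in gld-1::gfp replicate 1, 2.64 in gld-1::gfp replicate 2 and 2.69 in gld-1 replicate 2 on the log2 scale, and that of miR-37-3p by 0.41, 1.85 and 1.35. In the other pairs that share a prefix, the miR-42-3p difference was -0.088 in lin-41 replicate 1 and -0.895 in gfp::lin-41. It was 1.21 in alg-1 replicate 1 and -1.29 in alg-1 replicate 2. For miR-37-3p the values in the same order were 0.45, -0.61, 1.11 and 0.28, so the sign varied outside the gld-1 transcripts. The differences of gld-1::gfp replicate 2 and gld-1 replicate 2 both use control replicate 3, so they are not independent. That control had 12474 reads in all and 9 of miR-42-3p. What the prefixes stand for is not stated in the labels. gld-1 replicate 1 and the edited strains have no control of their prefix. A fit with the name prefix as a factor over all libraries called miR-37-3p and miR-42-3p as higher with gld-1 than in the control (log2 fold changes 1.27 and 2.27, edgeR adjusted p = 0.0417 and 0.0021) and with gld-1::gfp (1.33 and 1.88, edgeR adjusted p = 0.00945 and 0.0025). It called miR-35-3p as lower with gld-1::gfp (-1.49, edgeR adjusted p = 0.00593). In the 3 strains it called miR-42-3p as higher (1.92, edgeR adjusted p = 0.0224) and neither miR-35-3p nor miR-36-3p. This fit called 31 of the 112 miRNAs with gld-1, 33 with gld-1::gfp and 40 in the 3 strains. Without the prefix these counts were 25, 14 and 34.

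**Figure D4:**
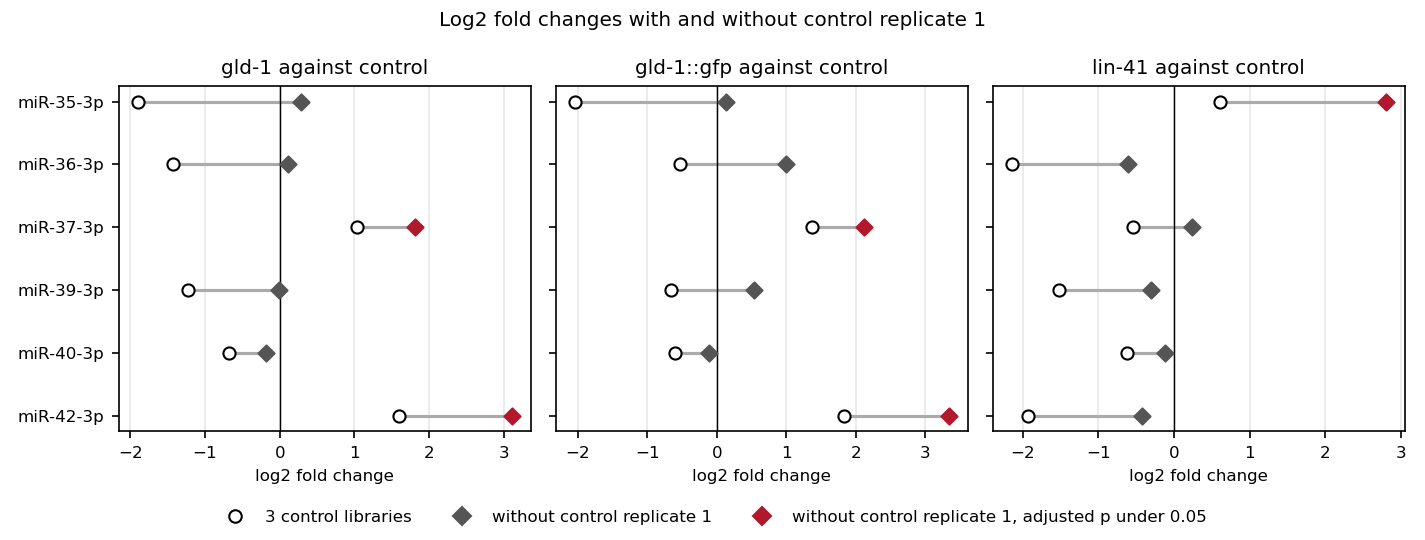
Log2 fold changes against the control with and without control replicate 1. The x axis is the edgeR log2 fold change, the y axis the 6 tested members, open circles use the 3 control libraries and diamonds leave out control replicate 1. Red diamonds are called. Control replicate 1 was singled out by its high family share, so leaving it out shifts the values up by construction. With library totals in place of TMM the values of miR-37-3p, miR-42-3p and miR-35-3p that are red here were below 0 with the 3 control libraries. miR-37-3p and miR-42-3p reach 1.80 and 3.11 with gld-1, 2.12 and 3.34 with gld-1::gfp, and miR-35-3p reaches 2.80 with lin-41.

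The remaining members, miR-36-3p and miR-39-3p, were called in no comparison between targets. miR-36-3p was between 48.0 and 307 normalised CPM outside the control and 778 in control replicate 1. miR-39-3p was between 439 and 1324 in the libraries of tested targets, 2642 with gfp::lin-41 and 3151 in control replicate 1.

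The miRNAs outside the family whose level followed the family sum most closely over the 16 libraries were miR-1819-3p (Spearman rho 0.503), miR-4814-3p (0.469), miR-51-3p (0.465), miR-785-3p (0.462) and let-7-5p (0.444), out of 99 candidates, all weak. For single members the closest were miR-60-5p for miR-36-3p (0.824), miR-34-5p for miR-42-3p (0.756), miR-52-3p for miR-37-3p (0.728), miR-44-5p for miR-39-3p (0.720), miR-784-5p for miR-35-3p (0.578) and miR-785-3p for miR-40-3p (0.535). These correlations describe levels scaled by the same factors in the same libraries. miR-43-3p, the neighbour of miR-42 at its locus, had at most 4 reads in a library and was not tested. miR-44-3p and miR-45-3p had identical counts in all 16 libraries, so their reads cannot be told apart. Of the 5 tested 5p arms, miR-42-5p was lower with alg-1 than with lin-41 (log2 fold change -4.52, SE 1.51, edgeR adjusted p = 0.0388, with 0 and 1 reads in alg-1), and no 5p arm was called in the other comparisons. Between lin-41 and gld-1, miR-42-5p went opposite to miR-42-3p (log2 fold change 3.34, SE 1.29, edgeR adjusted p = 0.0824).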

How the data were processed

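Small RNA from pulldown elutions of young adult worms was made into libraries with the SMARTer smRNA-Seq kit, which adds a poly(A) tail, and was sequenced on 2 kinds of instrument. Per the study's methods and the submitters' processing notes, the authors demultiplexed reads with bcl2fastq, trimmed adaptors and poly(A) with cutadapt 1.14, removed Escherichia coli reads with Bowtie2 2.3.3.1 and assigned reads to miRBase miRNAs with miRDeep2. The deposited files give counts, whole numbers of reads for each pair of mature miRNA and precursor, without normalisation. Trimming at runs of A can shorten a miRNA that holds such a run, and members of similar sequence can share reads; the size of either effect was not tested.

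Each library listed 452 rows for 434 mature miRNAs, and every member had a single row. For miRNAs with several precursors the largest row was used. Counts were analysed in R 4.3.3 with edgeR 4.0.16 (TMM factors, at least 10 reads in at least 2 libraries, glmQLFit with robust estimation, 1 mean per group over all 16 libraries, glmQLFTest, Benjamini-Hochberg adjustment within a comparison over 112 miRNAs, threshold 0.05). The common biological coefficient of variation was 0.532. TMM takes the bulk of the miRNAs to be at the same level in all libraries, and changes are relative to that bulk. Replicates of a group differed by far more than sampling noise (chi-square per degree of freedom 49.0 or more). DESeq2 1.42.0, RLE factors, library totals, no low-count filter, the replicate number as a block, the library-name prefix as a factor and leaving out each replicate were tried. The comparisons of lin-41 and alg-1 with gld-1 and with each other, and crossed replicate numbers, were added after the data had been seen. The authors' own enrichment, regression-normalised counts against the control, was not used. The fit was tested on simulated counts with large planted changes and no outlying control, which does not bear on the smaller differences reported here.

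Groups and replicate numbers came from the sample titles. The members are always named. Further lists were the 5p arms, the neighbours of mir-42, miRNAs of somatic tissue and the miRNAs most like the family sum by Spearman correlation of log2(normalised CPM + 1). Members and lists were chosen with earlier results of these data known. Positions are from the Ensembl release 115 annotation of WBcel235.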

Additional observations from a re-analysis of the deposited data

Results flagged for a closer look

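Tests between the pulldowns, each with its own probes and chosen after the data had been seen, called a pair of members. miR-42-3p differed between lin-41 and gld-1 by -3.52 on the log2 scale and between alg-1 and gld-1 by -3.20. miR-40-3p differed between alg-1 and gld-1 by 3.22 and between alg-1 and lin-41 by 3.16. The comparisons share libraries, so they are not independent of each other. Of all miRNAs, 15.2% were called between lin-41 and gld-1, 17.9% between alg-1 and gld-1 and 17% between alg-1 and lin-41. The calls of miR-42-3p were lost in some alternatives, as given above.

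Outside the members' own strands, miR-42-5p reached 411.5 normalised CPM in the single gfp::lin-41 library, above the level in each control library, of which the highest had 62.3.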

How the results depend on the processing

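The log2 fold changes of miR-40-3p with alg-1 against the control, gld-1 and lin-41, and of miR-42-3p with lin-41 and alg-1 against gld-1, kept their direction under every alternative, and miR-40-3p was called in 9 of 11 alternatives against the control and 10 of 10 against each of gld-1 and lin-41. Library totals in place of TMM put the median over all miRNAs as low as -3.62 on the log2 scale (-0.05 with TMM, lin-41 against the control) and gave 4 called members with gld-1, 5 with gld-1::gfp, 5 in the 3 strains, 6 with lin-41 and 4 with alg-1, against the control. They gave 1 in changed specificity, 2 with lin-41 and 1 with alg-1 against gld-1, and 3 with alg-1 against lin-41. Against gld-1 they called 21 of all miRNAs with lin-41 and 20 with alg-1, and the other counts with library totals are given below. The call of miR-42-3p between alg-1 and gld-1 was lost with library totals (edgeR adjusted p = 0.154) and with some libraries left out. With library totals miR-37-3p turned to -2.04 with gld-1::gfp and -1.89 in the 3 strains, and miR-35-3p with lin-41 to -2.81. With the name prefix as a factor, 2 members were called with gld-1, 3 with gld-1::gfp, 1 in the 3 strains and 1 with lin-41 against the control, 1 with gld-1::gfp, 1 in changed specificity and 3 with lin-41 against gld-1, and 2 with alg-1 against lin-41, and miR-35-3p in the 3 strains turned to 0.69. In the order of these comparisons, the prefix fit called 31, 33, 40 and 30 of all miRNAs against the control. It called 16, 12 and 25 against gld-1, and 27 with alg-1 against lin-41. RLE factors and DESeq2 each gave 1 in the 3 strains (33 and 36 of all miRNAs), and DESeq2 gave 2 with alg-1 against lin-41 (20 of all miRNAs). Without the low-count filter 2 members were called with alg-1 against the control, 2 with lin-41 against gld-1 and 2 with alg-1 against lin-41. There 24, 16 and 20 of all miRNAs were called. The cause of these changes was not tested.

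Leaving out a control replicate gave 1 to 2 called members with gld-1, 1 to 2 with gld-1::gfp and 2 to 3 in the 3 strains against the control. In these fits 22 to 24 of all miRNAs were called with gld-1, 15 to 19 with gld-1::gfp and 30 to 39 in the 3 strains. Over all fits with a library left out, the log2 fold change of miR-35-3p in the 3 strains was -2.19 to 0.49.

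Same-numbered libraries did not deviate together (correlations from -0.45 to 0.27). The replicate block gave 1 called member with gld-1::gfp and 2 with alg-1 against the control, 2 with lin-41 against gld-1 and 2 with alg-1 against lin-41. In these comparisons it called 17, 25, 19 and 20 of all miRNAs. Crossed numbers of gld-1 gave 0 for gld-1::gfp, 0 in each edited strain and 2 with lin-41. All miRNAs called were then 11 for gld-1::gfp, 2 in seed destruction, 4 in changed specificity and 21 with lin-41.

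Counts of all miRNAs called moved by over 1.5 times with library totals, from 25 to 56 with gld-1, 14 to 85 with gld-1::gfp, 34 to 78 in the 3 strains, 20 to 85 with lin-41 and 24 to 37 with alg-1 against the control, from 3 to 33 in changed specificity and from 19 to 46 with alg-1 against lin-41. With the prefix they went from 14 to 33 with gld-1::gfp, 2 to 10 in seed destruction and 3 to 12 in changed specificity, and with RLE factors from 2 to 1 in seed destruction. Leaving out a library gave as few as 14 beside 24 with alg-1, 16 beside 25 with gld-1 and 12 beside 20 with lin-41 against the control, 6 beside 13 with gld-1::gfp, 1 beside 2 in seed destruction and 11 beside 17 with lin-41 against gld-1, 10 beside 19 with alg-1 against lin-41, and as many as 5 beside 3 in changed specificity. Depth limits miR-36-3p and miR-42-3p most, since each had as few as 8 reads in a library.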
